A study of Mus musculus with 9 samples.

Results

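The 39 genes described here are interferon-stimulated genes, chosen by name from the symbols in the deposited count table, where all 39 were found among 58735 genes. Of these, 37 passed the filter on low counts and were tested together with the other genes, 15492 in all. They fall into 9 role groups. The RNA sensors are IFIH1, DDX58 and DDX60, and the transcription factors are STAT2, IRF9, IRF7 and IRF1. The ISG15 conjugation system is represented by ISG15, UBE2L6, HERC5, HERC6 and USP18. The IFIT family is represented by IFIT1, IFIT2, IFIT3 and IFIT5, the IFITM family by IFITM1, IFITM2 and IFITM3, and the OAS family by OAS1, OAS2, OAS3 and OASL. The GTPases are MX1, MX2 and GBP1. Other antiviral effectors are BST2, EIF2AK2, ISG20, TRIM22, SAMD9, SAMD9L and RSAD2. The last group holds IFI6, IFI27, IFI35, IFI44, IFI44L and XAF1. The gene MX1 is unrelated to the empty vector, which the labels name MX.

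RNA was sequenced from Caki cells, a human line from a clear cell carcinoma of the kidney, in 3 groups of 3 libraries. The YAP1-S127A group carried a retroviral vector for YAP1 in which the serine that Hippo kinases phosphorylate is replaced by alanine, described in the labels as constitutively active. The YAP1 group carried the same kind of vector for the wild-type protein, and the MX group carried the empty vector. All 3 groups were selected with G418 and grown with serum, and the labels name no interferon or other stimulus. YAP1 is the transcriptional co-activator at the end of the Hippo pathway. The labels say neither whether a line was a pool or 1 clone nor how many cultures stand behind a group's 3 libraries. The p-values below therefore rest on a spread that may be technical.

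Type I and III interferons are secreted by cells that sense foreign nucleic acid, and bind receptors that activate the kinases JAK1 and TYK2. STAT2 is then phosphorylated and joins IRF9 in a complex named ISGF3, which binds the promoters of interferon-stimulated genes. Many tumour lines keep part of this set active with no added interferon. Its products sense viral RNA, block entry and translation of viral RNA, tag proteins with the ubiquitin-like protein ISG15, and cut RNA.

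Total counts ran from 15789722 to 24811150 per library, so that 3 counts stood for 0.107 to 0.229 CPM (counts per 1000000 counts of a library, scaled by TMM factors). The introduced gene stood at 631 to 741 CPM in the YAP1-S127A libraries, 1003 to 1519 CPM in the YAP1 libraries and 91.1 to 108 CPM in the MX libraries. The share of counts from the mitochondrial genome was 7.40 to 29.6% in YAP1-S127A, 3.5 to 11.4% in YAP1 and 1.9 to 6.60% in MX, so YAP1-S127A and MX did not overlap, and YAP1-S127A replicates 1 and 3 stood highest. MX replicate 1 had reads on 25491 genes, above the 22115 and 22738 of the other MX libraries. Of 10 markers of kidney epithelium and clear cell carcinoma, PAX8 stood at 228 to 312 CPM and VIM, KRT8, KRT18, LHX1, CDH16 and EPCAM were all above 6 CPM in every library, while PAX2, CA9 and NDUFA4L2 averaged under 1 CPM. Of the 8 tested, 3 fell and 1 rose in YAP1-S127A against MX and 2 fell in YAP1 against MX, at an adjusted p under 0.05 in edgeR. These are 50% and 25% of the tested markers, against 18.4% and 6.81% of all tested genes. Their log2 fold changes ran from -1.81 to 0.65 and from -1.96 to 0.24, and their part in the results below was not tested. Of 11 leukocyte markers, 10 averaged under 1 CPM and CD3E and CLEC4C were at 0 in all 9 libraries. Their summed level was 2.09 to 3.94 CPM in YAP1-S127A, 2.10 to 3.68 CPM in YAP1 and 3.32 to 3.71 CPM in MX.

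A minority of the 39 genes differed from the empty vector past the test's threshold, and most of those were lower with a YAP1 construct. In YAP1-S127A against MX, 8 of the 37 tested genes passed an adjusted p of 0.05 (quasi-likelihood test of edgeR, Benjamini-Hochberg over all 15492 genes). IFITM1, IFI44L, IFITM2, BST2, UBE2L6, OAS3 and OAS1 fell, and GBP1 rose. In YAP1 against MX, 5 passed: IFITM1, IFI44L, BST2 and OAS1 fell, and GBP1 rose. Both comparisons use the same MX libraries. Between the constructs none of the 37 passed. In bulk RNA, fewer cells that express a gene and less of its RNA per cell cannot be told apart.

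The counts stand against a background of many changed genes. In YAP1-S127A against MX, 21.6% of the members were called, against 18.4% of all tested genes. Counted in both directions, the share called is near the background. By direction, 7 members or 18.9% fell, against 8.84% of all tested genes, and 1 or 2.7% rose, against 9.53% of all tested genes. In YAP1 against MX, 13.5% of the members were called, against 6.81% of all tested genes, with 4 members or 10.8% that fell against 3.58% of all genes and 1 or 2.7% that rose against 3.23%. Whether called or not, 25 of the 37 members (67.6%) had a log2 fold change below 0 in YAP1-S127A and 23 (62.2%) in YAP1, against 50.5% of all tested genes in each comparison. The median log2 fold change of the members was -0.12 in YAP1-S127A and -0.20 in YAP1, against -0.00 over all tested genes in each comparison. For 11 members no YAP1-S127A library reached the range of MX, which is 29.7% of the members against 32.6% of all genes. Of these 11, 9 were lower and 2 higher, against 2477 lower and 2580 higher over all tested genes. For 13 members no YAP1 library reached the range of MX, or 35.1% against 24.1% of all genes. Of these 13, 11 were lower and 2 higher in YAP1, against 1859 lower and 1875 higher over all tested genes.

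**Figure D1:**
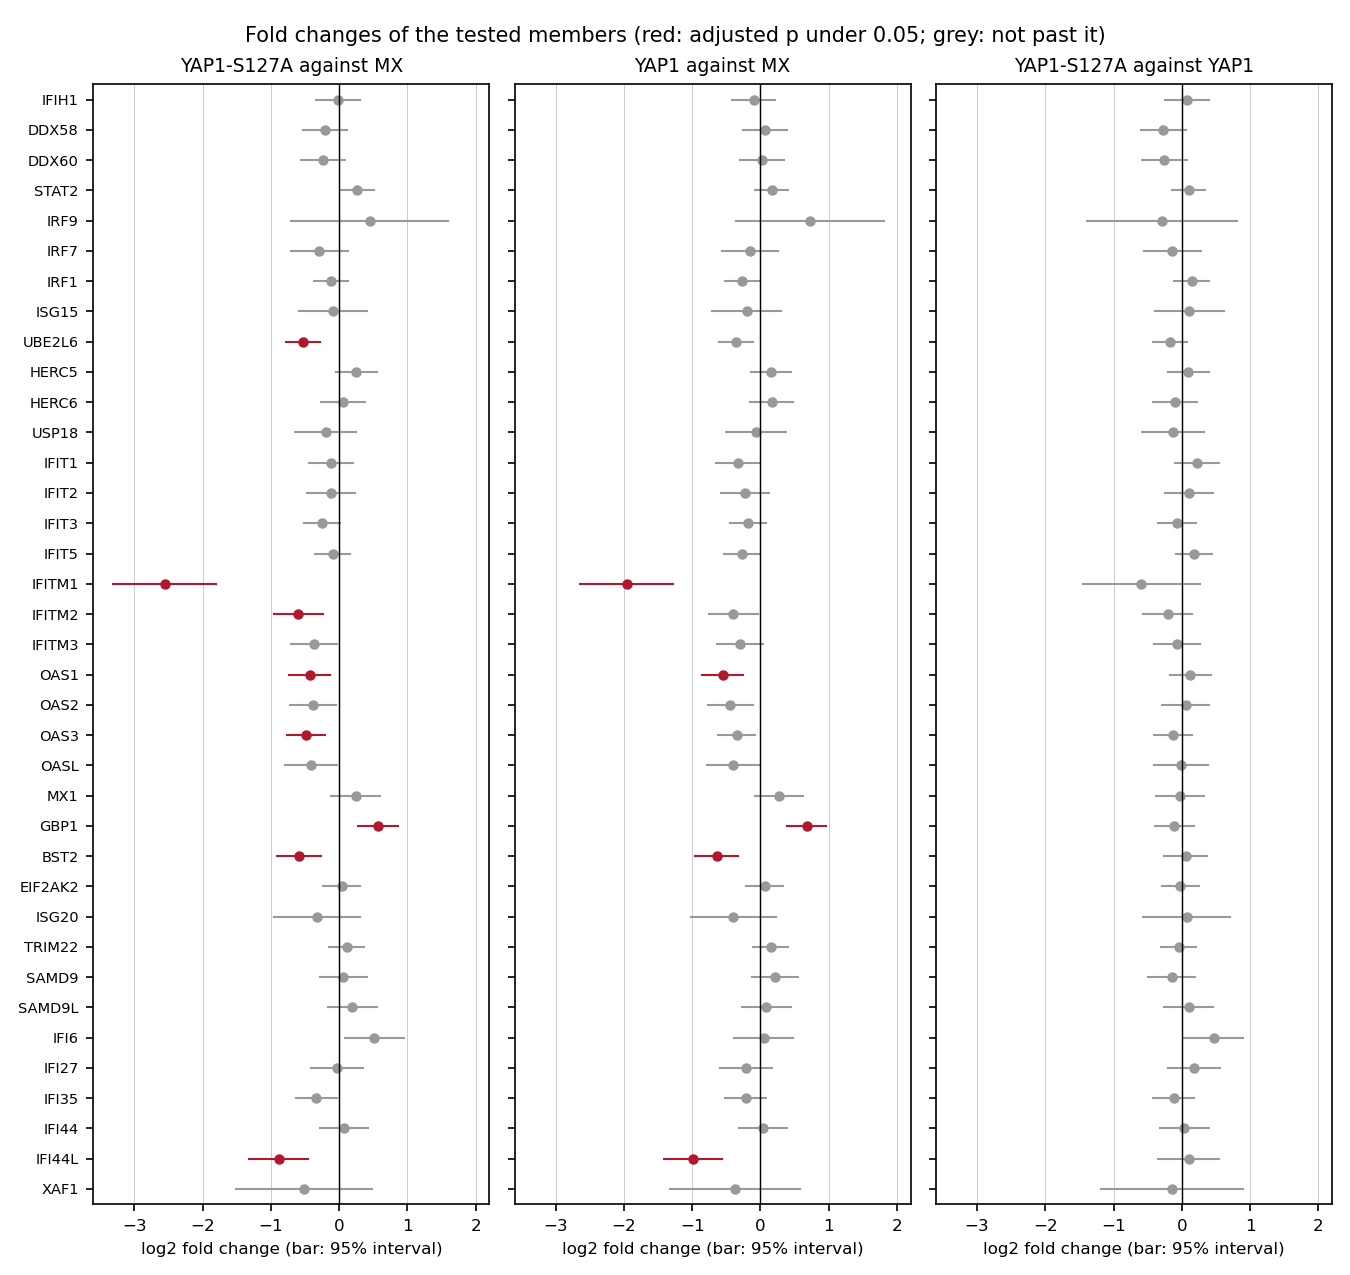
Log2 fold change of each of the 37 tested members (rows, by role) in YAP1-S127A against MX, YAP1 against MX and YAP1-S127A against YAP1, with 95% intervals as bars; red marks an adjusted p under 0.05. IFITM1 stands apart at -2.55 and -1.96 in the first 2 panels, most other members lie within 1 log2 unit of 0, and no member is red in the last panel.

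The intervals show how much change these libraries could miss. In YAP1-S127A against MX the 95% interval lay wholly within a 2-fold change either way for 33 of the 37 members, and in YAP1 against MX for 32. At an unadjusted p under 0.05 there were 14 members (37.8%, against 31.3% of all tested genes) in YAP1-S127A and 13 (35.1%, against 19.8%) in YAP1. DESeq2 and limma-voom on the same filtered genes also called 8 and 5 members. The call count in YAP1-S127A against MX was 5 without YAP1-S127A replicate 3, and 2 (IFITM1 lower and IFI6 higher) when the mitochondrial share entered the fit as a covariate. Calls among all tested genes dropped from 2845 to 1847 and 1405 in these fits. With libraries scaled by total counts alone the member count was 15, all lower, with IFITM3, IFI35, IRF7, DDX58, DDX60, IFIT3, OAS2 and OASL added and GBP1 lost. That scaling called 611 of all tested genes as higher and 3836 as lower, with a median log2 fold change of -0.28. In YAP1 against MX the member count was 3 without MX replicate 2, without MX replicate 3 or without YAP1 replicate 3. Calls among all tested genes were 836, 745 and 601 in that order, against 1055 with all libraries.

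Levels were compared between genes as CPM per kilobase of the gene length deposited with the counts. IFITM3, a membrane protein that blocks fusion of viruses with endosomes, stood highest, at 183 ± 30.5 in YAP1-S127A, 194 ± 37.6 in YAP1 and 238 ± 43.4 in MX (CPM per kilobase, SD, n = 3 each). BST2, or tetherin, which holds budding virus particles at the cell surface, followed at 105 ± 25.9, 101 ± 5.79 and 158 ± 23.9 CPM per kilobase in the same order of groups. UBE2L6, ISG15, IFITM2, IFI6, IFI35, IFI27 and IRF7 came next, with means over all 9 libraries of 48.0 down to 12.9 CPM per kilobase. Neighbours in that order such as ISG15 and IFITM2 (34.9 and 32.9 CPM per kilobase) or IFI6 and IFI35 (27.8 and 26.1 CPM per kilobase) differed by less than the SD over the MX libraries of either gene. At the low end stood XAF1 with 0.131 and IRF9 with 0.170 CPM per kilobase over all 9 libraries.

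**Figure D2:**
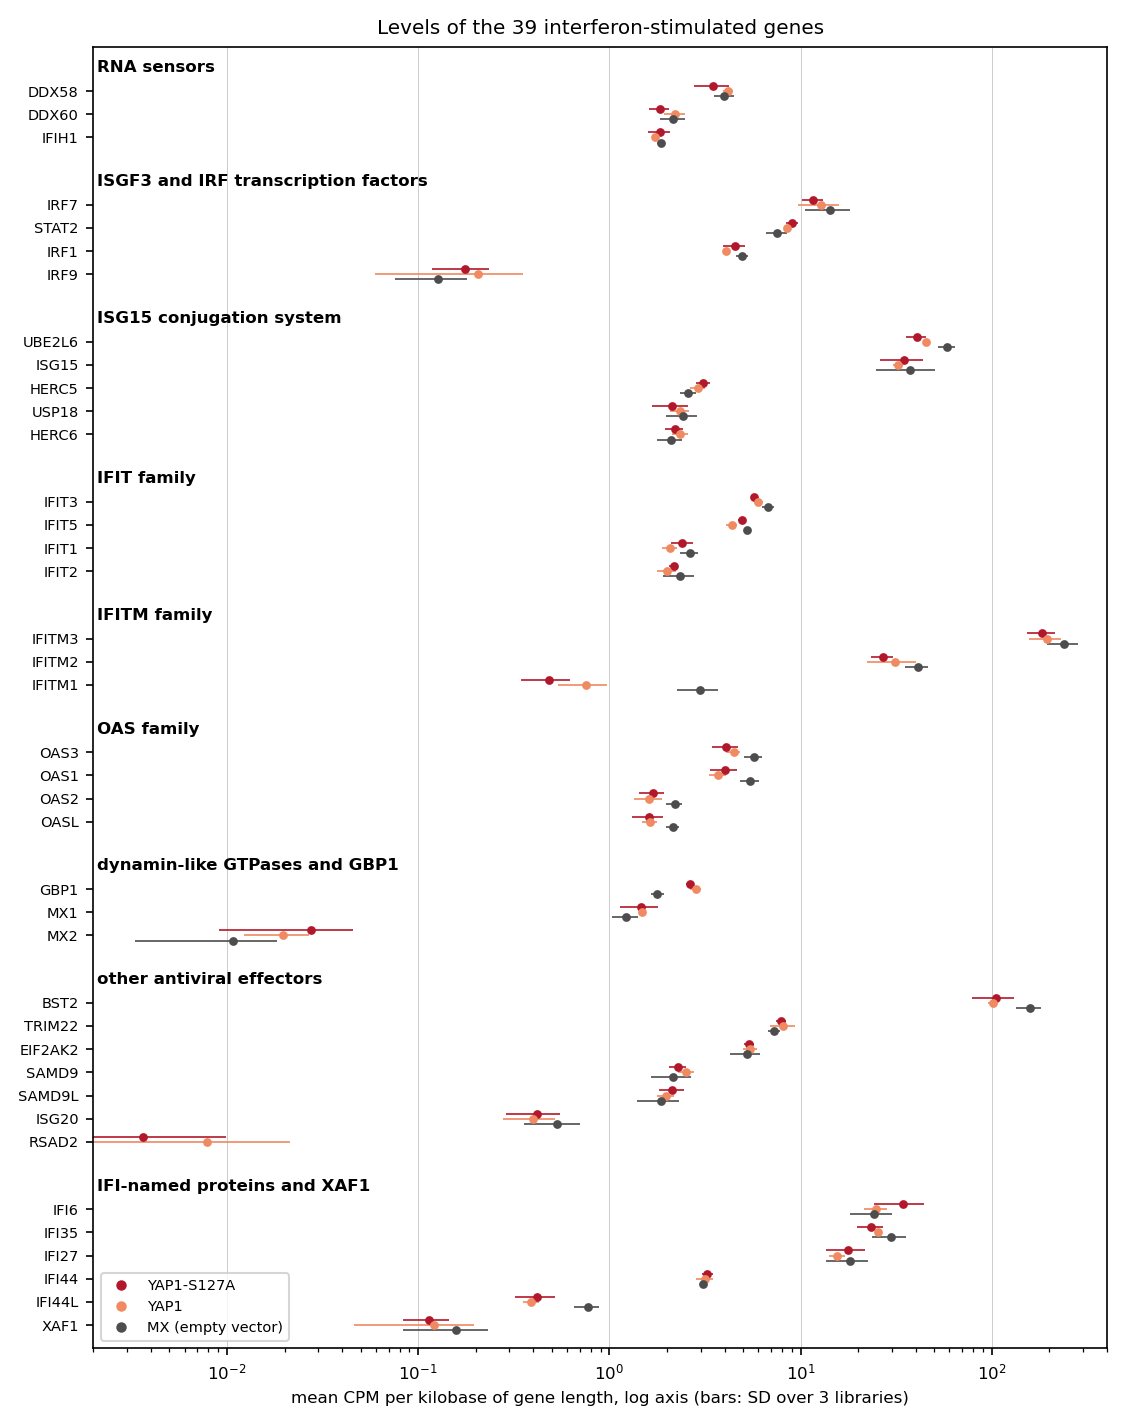
Mean CPM per kilobase of gene length (log axis) of each of the 39 members in YAP1-S127A, YAP1 and MX cells, grouped by role, with the SD over 3 libraries as bars. IFITM3 and BST2 lie above 100 in all 3 groups, MX2 and RSAD2 below 0.03, and the RSAD2 mean in MX is 0 and cannot be drawn.

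Both members that did not pass the filter are classical antiviral genes. MX2, a GTPase that restricts retroviral nuclear entry, had 1 to 10 counts per library. RSAD2, or viperin, an enzyme that makes a chain-terminating nucleotide, had 0 to 2 counts per library and 0 in all 3 MX libraries, which allows up to 0.107 to 0.181 CPM in those libraries. Neither gene allows a fold change at this depth. Upper limits on CPM of this kind cover counting error only.

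The OAS family, enzymes that make the short adenylate chains that switch on RNase L, lay lower than MX in every member in both comparisons, as did every member of the IFITM and IFIT families. OAS1, on chromosome 12 at 112906777 to 112933222, had 16.9, 23.3 and 19.4 CPM in YAP1-S127A, 16.1, 19.7 and 18.9 CPM in YAP1 and 23.6, 29.7 and 27.2 CPM in MX. OAS3, at 112938352 to 112973249, had 38.4, 34.8 and 27.8 CPM in YAP1-S127A, 35.5, 34.6 and 40.2 CPM in YAP1 and 52.0, 42.6 and 45.7 CPM in MX. For both genes every MX library lay above all 6 libraries with a construct. The log2 fold change of OAS1 was -0.43 (SE 0.14, adjusted p = 0.0432) in YAP1-S127A and -0.55 (SE 0.14, adjusted p = 0.0218) in YAP1. That of OAS3 was -0.48 (SE 0.13, adjusted p = 0.0148) in YAP1-S127A and -0.35 (SE 0.13, adjusted p = 0.128) in YAP1.

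OAS2, which lies beside OAS1 and OAS3, and OASL, a relative that does not make adenylate chains, did not pass the threshold. OAS2 had log2 fold changes of -0.38 (adjusted p = 0.110) in YAP1-S127A and -0.44 (adjusted p = 0.115) in YAP1, and OASL had -0.41 (adjusted p = 0.130) and -0.40 (adjusted p = 0.214). Summed over the 4 genes, the family stood at 61.5 to 77.3 CPM in YAP1-S127A, 66.1 to 76.9 CPM in YAP1 and 91.5 to 97.8 CPM in MX. All 4 genes are on chromosome 12, where the median log2 fold change over 848 tested genes was -0.06 in YAP1-S127A and -0.14 in YAP1. The part of that shift in the OAS values was not tested. The OAS1 call was lost in 6 of the 9 fits that left out 1 library in YAP1-S127A against MX, with an adjusted p of up to 0.173: those without YAP1-S127A replicate 1 or 3, YAP1 replicate 2 or 3, or MX replicate 2 or 3. It was also lost in a fit of only the groups compared. In YAP1 against MX it was lost in 4, without YAP1 replicate 1 or 3 or MX replicate 2 or 3, with an adjusted p of up to 0.104, and the OAS3 call in YAP1-S127A was lost without YAP1-S127A replicate 3 (adjusted p = 0.120).

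**Figure D3:**
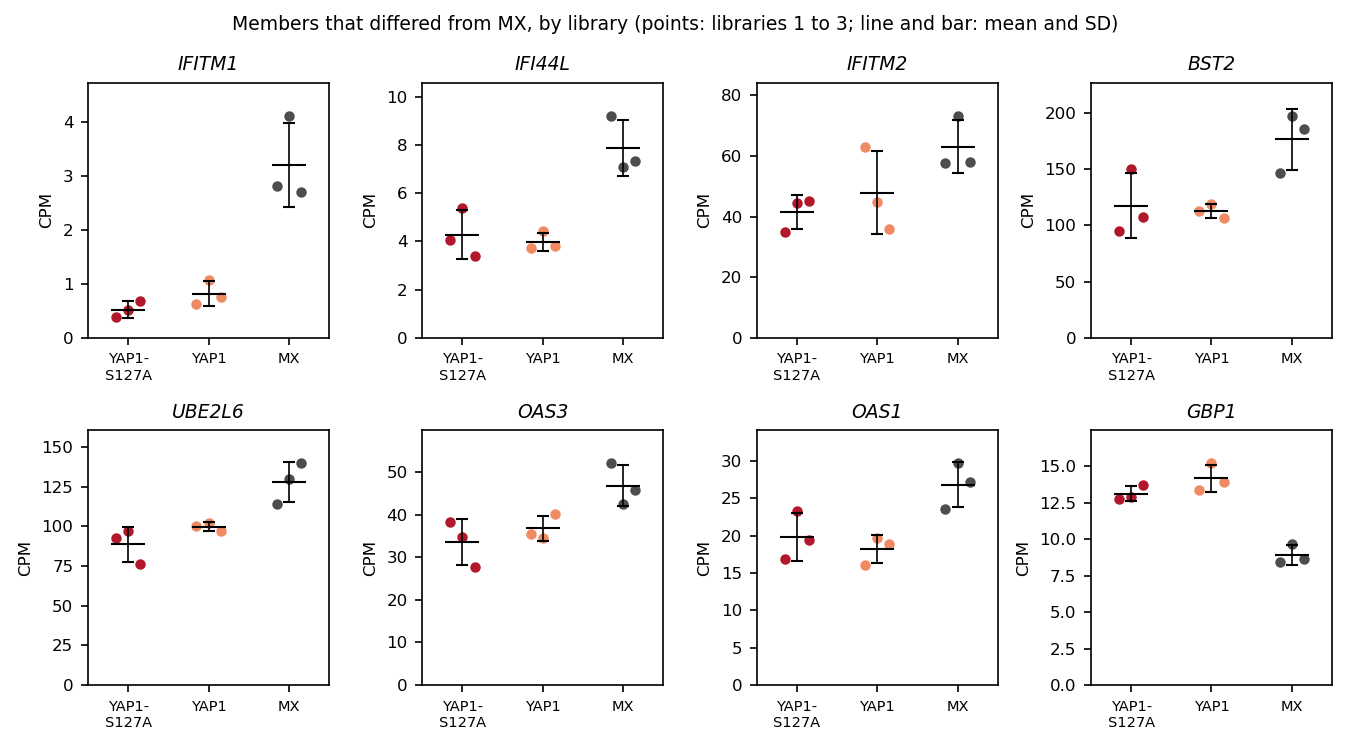
CPM of each of the 8 members that differed from MX in at least 1 comparison, by library, with the mean as a line and the SD as a bar (YAP1-S127A, YAP1 and MX, 3 libraries each; every axis starts at 0). For IFITM1, IFI44L, UBE2L6, OAS3 and OAS1 every MX library lies above both constructs, for GBP1 every MX library lies below them, and for IFITM2 and BST2 the MX libraries overlap 1 of the constructs.

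IFITM proteins block the entry of enveloped viruses at the plasma membrane and in endosomes. IFITM1, the smallest in counts of the 3, had 0.381, 0.507 and 0.683 CPM in YAP1-S127A, 0.622, 1.08 and 0.754 CPM in YAP1 and 2.82, 4.11 and 2.71 CPM in MX. These are 5 to 13, 12 to 19 and 68 to 79 raw counts per library in those groups. Every MX library lay above all construct libraries, and the log2 fold change was -2.55 (SE 0.36, adjusted p = 4.55e-05) in YAP1-S127A and -1.96 (SE 0.33, adjusted p = 0.000713) in YAP1. It was the only tested member past a 2-fold change in either comparison, and its call held in all 18 alternatives in which IFITM1 was tested alone, in both comparisons.

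The neighbouring IFITM genes moved less. IFITM2 had 35.0, 44.4 and 45.0 CPM in YAP1-S127A, 62.9, 44.8 and 36.0 CPM in YAP1 and 57.9, 73.1 and 58.2 CPM in MX. All YAP1-S127A libraries lay below all MX libraries, while 1 YAP1 library lay among the MX libraries. Its log2 fold change was -0.60 (SE 0.17, adjusted p = 0.0190) in YAP1-S127A and -0.40 (SE 0.17, adjusted p = 0.191) in YAP1. For IFITM3 it was -0.37 (adjusted p = 0.118) and -0.30 (adjusted p = 0.327) in the same order.

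How the reads of these genes were divided limits the IFITM1 value. In the deposited annotation IFITM1 spans 313506 to 315272 of chromosome 11 and lies wholly within IFITM2, which spans 307631 to 315272 on the same strand, and the sources used here do not give the rule that assigned reads in the overlap. With the counts of both genes summed, an alternative chosen after seeing the data, the log2 fold change was -0.65 (adjusted p = 0.0108) in YAP1-S127A and -0.44 (adjusted p = 0.133) in YAP1. In MX the sum held 1210 to 1623 counts of IFITM2 and 68 to 79 of IFITM1, so it follows IFITM2 (-0.60 and -0.40). The sum therefore cannot decide whether the IFITM1 fall depends on how reads were divided. The IFITM2 call in YAP1-S127A was lost without YAP1-S127A replicate 1, MX replicate 1 or MX replicate 2, with an adjusted p of up to 0.0774. In YAP1, IFITM2 was called without YAP1 replicate 1 (log2 fold change -0.64, adjusted p = 0.0237).

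IFI44L, a cytoplasmic protein of the IFI44 family with reported antiviral and feedback roles, had 4.04, 5.39 and 3.41 CPM in YAP1-S127A, 3.73, 4.42 and 3.82 CPM in YAP1 and 9.20, 7.07 and 7.33 CPM in MX. The groups with a construct overlapped each other and lay below every MX library. The log2 fold change was -0.89 (SE 0.21, adjusted p = 0.00465) in YAP1-S127A and -0.99 (SE 0.20, adjusted p = 0.00436) in YAP1. IFI44L spans 78619922 to 78646145 of chromosome 1. Its neighbour and relative IFI44, at 78649796 to 78664078, had log2 fold changes of 0.07 (95% interval -0.28 to 0.43) and 0.03 (95% interval -0.32 to 0.38) in the same order. Close copies such as this pair can share reads, and the difference between their fold changes was not tested. The IFI44L call held in all 9 fits that left out 1 library, in both comparisons.

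The other genes of that role group did not pass the threshold with all libraries and the settings used throughout. IFI6, a small membrane protein that acts against flaviviruses, had 22.5, 39.4 and 27.3 CPM in YAP1-S127A, 18.1, 23.5 and 22.8 CPM in YAP1 and 15.0, 24.8 and 23.0 CPM in MX. Its log2 fold change was 0.51 (adjusted p = 0.0942) in YAP1-S127A and 0.05 (adjusted p = 0.933) in YAP1, and the groups overlapped in each comparison. IFI35, a partner of NMI, had -0.34 (adjusted p = 0.118) and -0.22 (adjusted p = 0.445), and IFI27, a mitochondrial and nuclear envelope protein, had -0.03 and -0.21. XAF1, a pro-apoptotic protein, had 0.510 to 1.60 CPM over all 9 libraries and wide intervals that reached past 2-fold. Under other settings IFI6 was called as higher in YAP1-S127A, with no filter (adjusted p = 0.00684), with a block for replicate number (0.00664), with the mitochondrial covariate (0.0245) and without YAP1-S127A replicate 1 (0.0287). IFI35 was called as lower there with that block (adjusted p = 0.0409), with total-count scaling and without MX replicate 1.

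BST2, at 17402939 to 17405648 of chromosome 19, had 94.5, 150 and 108 CPM in YAP1-S127A, 113, 119 and 106 CPM in YAP1 and 146, 197 and 186 CPM in MX. YAP1-S127A replicate 2 reached into the range of MX, and no YAP1 library did. The log2 fold change was -0.59 (SE 0.15, adjusted p = 0.0103) in YAP1-S127A and -0.64 (SE 0.15, adjusted p = 0.0122) in YAP1. In YAP1-S127A the call was lost without YAP1-S127A replicate 1 or 3 (adjusted p of up to 0.0647). In YAP1 it was lost without YAP1 replicate 3, MX replicate 2 or MX replicate 3 (adjusted p of up to 0.0752).

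Of the other antiviral effectors, 5 were tested and none passed the threshold. The kinase EIF2AK2, or PKR, which halts translation when it binds double-stranded RNA, had log2 fold changes of 0.04 (95% interval -0.23 to 0.31) in YAP1-S127A and 0.06 (95% interval -0.21 to 0.33) in YAP1. TRIM22, a ubiquitin ligase, had 0.11 and 0.15, SAMD9 had 0.06 and 0.21, and SAMD9L had 0.19 and 0.09. The intervals of these 4 genes lay within a 2-fold change in both comparisons. ISG20, an exonuclease that degrades single-stranded RNA, had 1.93 to 4.78 CPM over all 9 libraries and log2 fold changes of -0.33 (adjusted p = 0.502) and -0.40 (adjusted p = 0.512), the second with an interval of -1.01 to 0.22 that reached past 2-fold. TRIM22 lies within TRIM5 on the opposite strand, and the sources used here do not give the strand setting of the counting.

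UBE2L6 is the E2 enzyme that passes ISG15 to its ligases. On chromosome 11 at 57551656 to 57568284, it had 92.5, 97.2 and 76.4 CPM in YAP1-S127A, 100, 102 and 96.9 CPM in YAP1 and 114, 130 and 140 CPM in MX. All construct libraries lay below all MX libraries. The log2 fold change was -0.53 (SE 0.12, adjusted p = 0.00386) in YAP1-S127A and -0.36 (SE 0.12, adjusted p = 0.0829) in YAP1. The YAP1-S127A call held in all 9 fits that left out 1 library.

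The rest of the ISG15 system did not pass the threshold. ISG15 itself had 24.3, 40.8 and 33.3 CPM in YAP1-S127A, 31.6, 31.4 and 28.3 CPM in YAP1 and 22.6, 46.4 and 36.6 CPM in MX. The MX libraries enclosed all construct libraries, and the log2 fold change was -0.09 (95% interval -0.59 to 0.41) in YAP1-S127A and -0.20 (95% interval -0.70 to 0.30) in YAP1. HERC5, the main ISG15 ligase in human cells, had 0.25 (adjusted p = 0.238) and 0.16 (adjusted p = 0.604). USP18, the protease that removes ISG15 and blocks the type I receptor, had -0.20 (adjusted p = 0.571) and -0.07 (adjusted p = 0.902), and HERC6 had 0.06 and 0.16.

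GBP1, a guanylate-binding GTPase that coats intracellular pathogens, was the 1 member that rose. At 89052319 to 89065360 of chromosome 1, it had 12.7, 12.9 and 13.7 CPM in YAP1-S127A, 13.4, 15.2 and 13.9 CPM in YAP1 and 8.41, 9.67 and 8.60 CPM in MX. Every construct library lay above every MX library. The log2 fold change was 0.56 (SE 0.14, adjusted p = 0.00769) in YAP1-S127A and 0.67 (SE 0.14, adjusted p = 0.00439) in YAP1. With libraries scaled by total counts alone, which moved the median of all tested genes in YAP1-S127A against MX to -0.28, the GBP1 value was 0.29 and was no longer called there (adjusted p = 0.240). MX1, a GTPase that traps viral nucleocapsids, had log2 fold changes of 0.25 (adjusted p = 0.360) and 0.27 (adjusted p = 0.411) on chromosome 21, whose 154 tested genes had medians of 0.11 and 0.12.

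The RNA sensors did not pass the threshold in any comparison. DDX58, or RIG-I, which recognises viral RNA ends, had log2 fold changes of -0.21 (adjusted p = 0.402) in YAP1-S127A and 0.06 (adjusted p = 0.875) in YAP1. IFIH1, or MDA5, which binds long double-stranded RNA, had -0.02 (95% interval -0.34 to 0.30) and -0.10 (95% interval -0.41 to 0.22), and the helicase DDX60 had -0.23 and 0.02. The intervals of all 3 lay within a 2-fold change in each comparison.

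The transcription factors did not pass it either. STAT2, the ISGF3 subunit with the main activation domain, had log2 fold changes of 0.26 (adjusted p = 0.129) in YAP1-S127A and 0.16 (adjusted p = 0.496) in YAP1. IRF7, which drives interferon alpha genes, had -0.29 (adjusted p = 0.344) and -0.15 (adjusted p = 0.738), and IRF1, an early target of interferon gamma, had -0.12 (adjusted p = 0.539) and -0.26 (adjusted p = 0.227). IRF9, the DNA-binding subunit of ISGF3, had 0.507 to 0.915 CPM in YAP1-S127A, 0.453 to 1.42 CPM in YAP1 and 0.263 to 0.642 CPM in MX. Its intervals reached past 2-fold in both comparisons. IRF9 lies wholly within the protein-coding gene AL136295.5 on the same strand, which had 0.133 CPM over all libraries, so reads that fit both genes may have gone to neither and the IRF9 level is uncertain.

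IFIT proteins bind viral RNA caps and the translation factor eIF3. All 4 lay lower with a construct, and none passed the threshold. IFIT1 had log2 fold changes of -0.11 (adjusted p = 0.661) in YAP1-S127A and -0.34 (adjusted p = 0.227) in YAP1, IFIT3 had -0.25 (adjusted p = 0.193) and -0.18 (adjusted p = 0.483), IFIT5 had -0.10 and -0.28, and IFIT2 had -0.12 and -0.22. Their summed level was 53.4 to 56.5 CPM in YAP1-S127A, 50.1 to 51.6 CPM in YAP1 and 59.2 to 63.5 CPM in MX, so the sums did not overlap. The median over the 621 tested genes of chromosome 10, which holds all 4, was -0.04 in YAP1-S127A and -0.11 in YAP1. IFIT1, IFIT2 and IFIT3 lie within the span of LIPA on the opposite strand, which stood at 106 CPM.

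Between the constructs, edgeR, DESeq2 and limma-voom each called 0 of the 37 members. By edgeR 1.97% of all tested genes were called (1.13% higher and 0.839% lower in YAP1-S127A). Each tool had 1 member at an unadjusted p under 0.05, which in edgeR is 2.7% against 12.3% of all tested genes. The libraries of the constructs did not overlap for 1 member, or 2.7% against 19.6% of all tested genes. The member at an unadjusted p under 0.05 in edgeR was IFI6, with a log2 fold change of 0.47 in YAP1-S127A against YAP1 (95% interval 0.03 to 0.90, adjusted p = 0.360). IFITM1 had -0.59 (95% interval -1.45 to 0.26). For 34 of the 37 members the interval lay within a 2-fold change either way, so differences of that size were not seen, while smaller ones, of the size seen against MX for OAS1 or UBE2L6, lie inside many of these intervals. The introduced gene itself was lower in YAP1-S127A than in YAP1 (log2 difference -0.83, adjusted p = 0.00383).

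The mitochondrial share moved with the YAP1-S127A comparison. As a covariate it left IFITM1 called and ended the calls of the other 7 members in YAP1-S127A against MX, with log2 fold changes of -0.21 for BST2, -0.24 for OAS1, -0.30 for IFITM2, -0.43 for UBE2L6, -0.56 for OAS3, -0.66 for IFI44L and 0.53 for GBP1. Because the share did not overlap between these groups, construct and share cannot be told apart there. In YAP1 against MX, where the shares overlapped, the same covariate kept all 5 calls.

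Within groups the members also varied with gene length, and the MX libraries are given here in full because both comparisons rest on them. In MX replicate 1 the 18 members under 4613 bases deviated from the group's mean by a median of -0.14 log2 units, and the 19 others by 0.11. MX replicate 2 showed the opposite, with 0.19 for the short members and -0.13 for the long ones. Over all tested genes split at the same length, the medians were -0.07 and 0.08 in MX replicate 1 and 0.08 and -0.07 in MX replicate 2. Spearman's rho between length and deviation over the 37 members was 0.54 in MX replicate 1, -0.59 in MX replicate 2 and -0.14 in MX replicate 3, given as a description since all members of a library share it. In the other groups rho was 0.53, -0.23 and -0.40 in YAP1-S127A replicates 1, 2 and 3, and 0.08, -0.33 and 0.26 in YAP1 replicates 1, 2 and 3. Over all tested genes it was 0.14, -0.06 and -0.10 in YAP1-S127A, 0.01, -0.12 and 0.08 in YAP1, and 0.32, -0.36 and -0.04 in MX. ISG15 and IFI6, at 941 and 865 bases, deviated by -0.58 and -0.44 log2 units in MX replicate 1, and EIF2AK2, at 10753 bases, by 0.28. Other members went the other way there. ISG20 and OAS1, at 7363 and 4947 bases, deviated by -0.59 and -0.18, and IRF9 and IFIT2, at 3794 and 4101 bases, by 0.41 and 0.29.

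**Figure D4:**
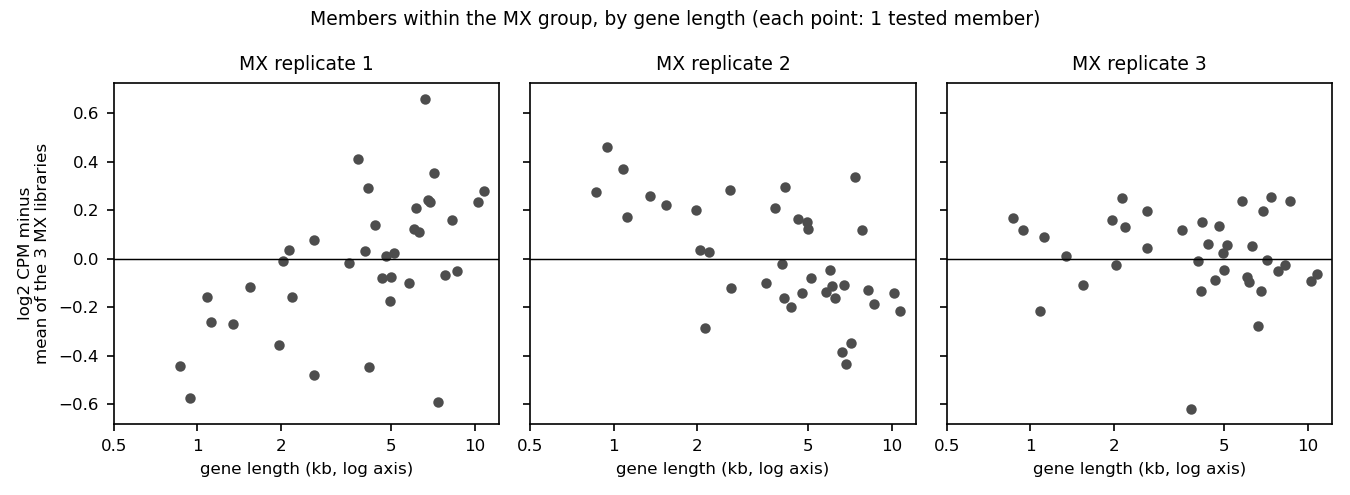
Deviation of each tested member's log2 CPM from the mean of the 3 MX libraries, against gene length in kilobases (log axis), 1 panel per MX library. By their medians, short members lie low and long members high in MX replicate 1, the reverse holds in MX replicate 2, and MX replicate 3 shows little slope. Single members depart from this, such as the long ISG20, which lies low in MX replicate 1 and high in MX replicate 2.

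Fold changes are set beside length as a description, and the difference between short and long members was not tested. Median log2 fold changes were -0.23 in YAP1-S127A and -0.22 in YAP1 for the short members, and -0.02 and 0.02 for the long members. All short tested genes had medians of 0.01 and -0.02 and all long ones -0.01 and 0.01. Over the 37 members, rho of fold change with length was weak, at 0.16 in YAP1-S127A and 0.20 in YAP1. The members that fell were 4 short and 3 long ones in YAP1-S127A, and 2 of each in YAP1. Without MX replicate 1, STAT2 (0.37), IFITM3 (-0.51), IFI35 (-0.50) and IRF7 (-0.51) also passed in YAP1-S127A against MX, and UBE2L6 (-0.44) and IFI35 (-0.38) in YAP1 against MX.

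Upstream of the members, transcripts of the ligands were close to absent. Of 21 genes for type I, II and III interferons, 13 had no read in any of the 9 libraries and 20 averaged under 1 CPM. IFNB1, the first type I interferon made by most infected cells, had at most 0.0763 CPM, and IFNL1 had no read. IFNE, an epithelial type I interferon, was the 1 ligand tested, with 1.53, 0.507 and 1.68 CPM in YAP1-S127A, 1.45, 1.19 and 0.976 CPM in YAP1 and 3.21, 2.06 and 1.47 CPM in MX. Its log2 fold changes of -0.86 (adjusted p = 0.142) and -0.91 (adjusted p = 0.187) did not pass the threshold.

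Receptors and signalling proteins were present, and those for interferon gamma changed in opposite directions. Of 10 such genes, 2 fell and 1 rose in YAP1-S127A, and 1 fell and 1 rose in YAP1. These are 30% and 20% of the list, against 18.4% and 6.81% of all tested genes. IFNGR1, the chain that binds interferon gamma, had 49.3, 49.9 and 59.0 CPM in YAP1-S127A, 32.8, 46.6 and 44.0 CPM in YAP1 and 26.8, 34.0 and 26.2 CPM in MX. Its log2 fold change was 0.87 (SE 0.14, adjusted p = 0.000255) in YAP1-S127A and 0.51 (SE 0.14, adjusted p = 0.0373) in YAP1. IFNGR2, the accessory chain, had 31.6, 35.7 and 31.8 CPM in YAP1-S127A, 31.2, 36.9 and 31.4 CPM in YAP1 and 44.7, 46.0 and 43.4 CPM in MX. It fell, with log2 fold changes of -0.44 (adjusted p = 0.0118) and -0.43 (adjusted p = 0.0264), and no construct library reached an MX library. The IFNGR1 call in YAP1-S127A held in all 19 alternatives, and that in YAP1 was lost without YAP1 replicate 2 or 3 or MX replicate 1 or 3, with total-count scaling, with the stricter filter, in a fit of only the groups compared and with the mitochondrial covariate (adjusted p = 0.0623). The IFNGR2 call in YAP1-S127A was lost without YAP1-S127A replicate 3 and with the mitochondrial covariate (adjusted p = 0.240), and that in YAP1 without YAP1 replicate 1 or 3 or MX replicate 2 or 3.

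IFNLR1, the receptor for interferon lambda, had 0.825 to 0.893 CPM in YAP1-S127A, 1.66 to 2.04 CPM in YAP1 and 1.35 to 2.48 CPM in MX. It fell in YAP1-S127A, by a log2 value of -1.07 (SE 0.34, adjusted p = 0.0331), and lost that call without MX replicate 2 or 3 or any of the 3 YAP1-S127A libraries, with limma-voom, in a fit of only the groups compared and with the mitochondrial covariate (adjusted p = 0.178). The type I receptor chains and their kinases had small values. IFNAR1 had log2 fold changes of -0.15 and -0.10, IFNAR2 -0.07 and -0.16, JAK1 -0.05 and 0.23, and TYK2 0.02 and 0.01, none of them called.

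Among 16 genes of nucleic acid sensing and interferon induction, 15 were tested, of which 3 fell and 1 rose in YAP1-S127A and 1 fell and 1 rose in YAP1. Called genes made up 26.7% and 13.3% of those tested, against 18.4% and 6.81% of all tested genes. IFI16, a nuclear DNA sensor, had 97.4, 84.4 and 92.0 CPM in YAP1-S127A, 146, 132 and 109 CPM in YAP1 and 187, 162 and 167 CPM in MX. The 3 groups did not overlap. Its log2 fold change was -0.91 (SE 0.12, adjusted p = 3.13e-05) in YAP1-S127A and -0.41 (SE 0.12, adjusted p = 0.05) in YAP1, just inside the threshold. Between the constructs it was -0.50 (SE 0.12, adjusted p = 0.0404). The call in YAP1 held without YAP1 replicate 1 and was lost without each of the other 8 libraries, and that between the constructs held without YAP1 replicate 3 or MX replicate 1 or 2 but with no other library left out. The first was also lost with RLE and with total-count scaling, in a fit of only the groups compared and with the mitochondrial covariate (adjusted p = 0.0606), and the second with that covariate (adjusted p = 0.167).

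TRIM25, the ubiquitin ligase that activates RIG-I, rose in both comparisons, with log2 fold changes of 0.43 (adjusted p = 0.0191) in YAP1-S127A and 0.54 (adjusted p = 0.0103) in YAP1. The first was lost without YAP1-S127A replicate 2 or MX replicate 2, the second without YAP1 replicate 3, and both with total-count scaling. IKBKE, a kinase of IRF3 and IRF7, had -0.43 (adjusted p = 0.0215) and -0.23 (adjusted p = 0.320), and DHX58, or LGP2, a regulator of the RNA sensors, had -0.48 (adjusted p = 0.0333) and -0.21 (adjusted p = 0.478). Both fell in YAP1-S127A, and both calls were lost without YAP1-S127A replicate 2 or 3 or MX replicate 3, and for DHX58 also without YAP1-S127A replicate 1 or MX replicate 2 and in a fit of only the groups compared. The mitochondrial covariate ended both (adjusted p = 0.0776 for IKBKE and 0.178 for DHX58).

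Of 11 brakes on the pathway, 10 were tested, of which 2 fell in YAP1-S127A and 1 in YAP1. Shares called were 20% and 10% in that order, against 18.4% and 6.81% of all tested genes. PTPN6, or SHP-1, a phosphatase of JAK kinases, had 26.2, 20.4 and 23.2 CPM in YAP1-S127A, 26.3, 28.4 and 26.4 CPM in YAP1 and 33.2, 40.9 and 40.1 CPM in MX. No construct library reached an MX library, and the log2 fold change was -0.71 (SE 0.13, adjusted p = 0.000588) in YAP1-S127A and -0.49 (SE 0.13, adjusted p = 0.0220) in YAP1. TRIM21, a ubiquitin ligase and antibody receptor, fell in YAP1-S127A (log2 fold change -0.37, adjusted p = 0.0479), a call that held in 7 of 19 alternatives. Leaving out a library kept it without MX replicate 1 or YAP1 replicate 1 only. The PTPN6 call in YAP1 was lost without MX replicate 2 or 3 or any of the 3 YAP1 libraries.

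A list of 40 further interferon-induced genes, of which 36 were tested, held 3 that fell and 4 that rose in YAP1-S127A and 1 that fell in YAP1. The share called was 19.4% in YAP1-S127A, near the 18.4% of all tested genes, and 2.78% in YAP1, below the 6.81% of all tested genes. GBP2, a relative of GBP1 in the same cluster on chromosome 1, had 15.7, 13.6 and 14.9 CPM in YAP1-S127A, 22.6, 25.4 and 19.6 CPM in YAP1 and 39.5, 37.5 and 38.0 CPM in MX. The 3 groups did not overlap. Its log2 fold change was -1.38 (SE 0.13, adjusted p = 2.87e-07) in YAP1-S127A, -0.77 (SE 0.13, adjusted p = 0.000541) in YAP1 and -0.61 (SE 0.13, adjusted p = 0.0156) between the constructs. GBP2 therefore fell where GBP1 rose, and both directions held in every alternative run, although reads of close GBP copies may be shared. The calls against MX held in all 19 alternatives, and that between the constructs was lost without YAP1-S127A replicate 2 or 3 or YAP1 replicate 1 or 2, and with the mitochondrial covariate.

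Of the other called genes on that list, BATF2, a transcription factor induced by interferon gamma, had 1.53 to 1.84 CPM in YAP1-S127A, 1.93 to 2.17 CPM in YAP1 and 2.66 to 3.53 CPM in MX. It fell in YAP1-S127A (log2 fold change -0.88, SE 0.25, adjusted p = 0.0196). TRIM14, an adaptor of MAVS signalling, rose there by 0.49 (SE 0.15, adjusted p = 0.0244) on the log2 scale. LAMP3, a lysosomal membrane protein, rose by 1.73 (SE 0.52, adjusted p = 0.0251) from few reads, with 0.381 to 1.14 CPM in YAP1-S127A, 0.510 to 0.754 CPM in YAP1 and 0.214 to 0.242 CPM in MX. BATF2 lost its call without YAP1-S127A replicate 1 or 3 or MX replicate 1 or 3, TRIM14 without YAP1-S127A replicate 1 or 2 or MX replicate 2 or 3, and LAMP3 without YAP1-S127A replicate 2 or 3 or any MX library. BATF2 also lost it with the mitochondrial covariate (adjusted p = 0.268) and TRIM14 with total-count scaling.

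Over the 4 lists of other pathway genes together, 71 genes were tested and 16 were called in YAP1-S127A (6 higher and 10 lower) and 6 in YAP1 (2 higher and 4 lower). That is 22.5% against 18.4% of all tested genes in YAP1-S127A, and 8.45% against 6.81% in YAP1. With total-count scaling the counts were 32 (2 higher and 30 lower) and 4 (0 higher and 4 lower). Over all 15492 tested genes that scaling called 4447 in YAP1-S127A (611 higher and 3836 lower) and 990 in YAP1 (311 higher and 679 lower). The pathway count in YAP1-S127A dropped to 6 and 7 when YAP1-S127A replicate 3 or 2 was left out. It dropped to 9 when MX replicate 2 or 3 was, and to 10 with the mitochondrial covariate. Calls among all tested genes, 2845 with all libraries, dropped too. They were 1847, 2276, 2709, 2171 and 1405 in these fits, in the order given. The pathway count in YAP1 was 1 without YAP1 replicate 3 and 3 without YAP1 replicate 2, MX replicate 2 or MX replicate 3. It was 4 without YAP1 replicate 1 and 9 without MX replicate 1. Calls among all tested genes, 1055 with all libraries, were 601, 639, 836, 745, 803 and 1423 in the same order.

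**Figure D5:**
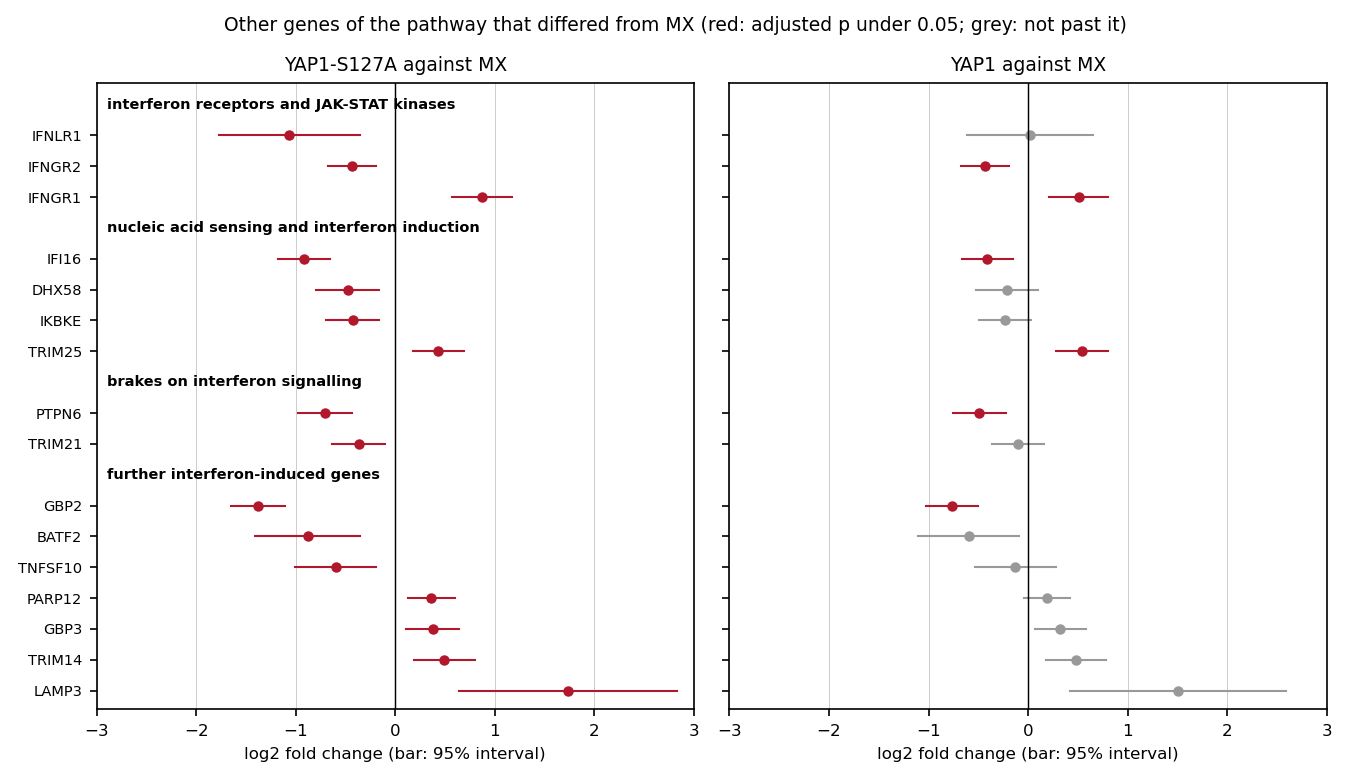
Log2 fold changes, with 95% intervals, in YAP1-S127A against MX and in YAP1 against MX for the pathway genes outside the 39 members that were called in at least 1 of these comparisons; red marks an adjusted p under 0.05. IFNGR1 lies right of 0 and IFNGR2 left of it in both panels, and GBP2 has the lowest value in each.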

How the data were processed

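The authors' deposited table gave raw read counts per gene for 9 libraries, made with a stranded mRNA kit per the labels. Tools named in the submitters' processing notes, with no role, are Salmon 1.9.0, HISAT2 and Cufflinks. The notes name the mouse build GRCm39 and the labels name mouse, but the gene identifiers are human Ensembl genes. The sources used here do not give the counting rule, its strand setting, the human build behind the coordinates or the annotation release. Reads of overlapping genes and close copies may therefore be divided in unknown ways.

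The members and all lists were chosen with earlier results of these data known. Genes kept by filterByExpr of edgeR 4.0.16 in R 4.3.3 were TMM-scaled and all 9 libraries were fitted at once, with a term for group alone and edgeR's robust quasi-likelihood test. Tests were two-sided, p-values were adjusted by Benjamini-Hochberg over the tested genes, and "called" means an adjusted p under 0.05. Each SE follows from the log2 fold change and its F statistic, and intervals are 95%. Depth was 15789722 to 24811150 counts. Members called, or past a log2 fold change of 1, are given in every library, and others by role group, with examples by level per length. Some genes are not reported here. Of the other pathway genes, called ones were named by smallest p, up to 4 a list, with IFNAR1, IFNAR2, JAK1, TYK2, IFNB1 and IFNL1. No 2 columns were identical, and r of log2 CPM was 0.983 to 0.990 within groups and 0.959 to 0.985 between them. The script recovered known changes when tested on simulated data, which held no pattern by gene length or mitochondrial share. Alternatives changed scaling, filter, tool (DESeq2 1.42.0, limma-voom 3.58.1), covariates and libraries.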

Additional observations from a re-analysis of the deposited data

How the results depend on the processing

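Over 19 alternatives every called member kept its direction (245 values for 13 calls), and 217 stayed past the threshold. The 28 others came from the mitochondrial covariate (7), leaving out a library (19) and other settings (2). Members called were 3 to 7 of 37 in YAP1 against MX, and 5 to 11 in YAP1-S127A against MX, when 1 library was left out. In YAP1-S127A against MX total-count scaling called 15 members, all lower, against 1 higher and 7 lower with TMM, and the mitochondrial covariate called 2. Among all tested genes, leaving out 1 library gave 601 to 1423 calls for YAP1 (1055 with all) and 1847 to 3079 for YAP1-S127A (2845), each against MX, and 126 to 465 between the constructs (305). For YAP1-S127A against MX, total-count scaling gave 4447 (611 higher, 3836 lower) and the covariate 1405. Between the constructs, total-count scaling gave 616 (113 higher, 503 lower), no filter 520, DESeq2 475 and a fit of only the groups compared 478. The cause was not tested. Deviations of same-numbered libraries from their group means had r of -0.18 to 0.20 over all tested genes. With 3 libraries in a group these values cannot decide whether the numbers pair libraries, and the labels state no pairing. The replicate block called 10 members and 3426 genes in the YAP1-S127A comparison with MX, 6 and 1428 in that of YAP1, and 0 and 472 between the constructs. The stricter filter did not test IFITM1. IFITM1, IRF9, XAF1 and ISG20 had few reads, which limits their values.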
